A study of Mus musculus with 8 samples.

Results

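Chromatin of spermatogonia collected 120 h after retinoic acid (RA) was compared with that of spermatogonia collected 48 h after it. The comparison used 4 of the 8 ATAC-seq libraries of the series, namely 2 at 120 h and 2 at 48 h, which hold 124117 of the 328733 deposited peaks. Peaks of the 4 libraries sharing 1 bp or more were joined, which gave 48153 regions, where the 8 libraries together gave 87144. In ATAC-seq a transposase inserts adapters into open DNA, so that coverage piles up where chromatin is accessible. The height of a peak was the coverage at its summit.

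All the mice carried the PIWIL2-eGFP transgene, in which the *Piwil2* promoter drives eGFP in germ cells from before birth to early spermatids, and the cells were sorted for eGFP. Each mouse of both timepoints received the RA synthesis inhibitor WIN 18,446 at 100 mg/kg every day for 7 days from 2 dpp, then 200 µg of RA at 9 dpp. The study takes cells at 48 h as A3 and those at 120 h as type B spermatogonia. The 0 h cells, named below for reference, had WIN 18,446 without RA, and testes of 1 mouse went into each library. The labels give the background as C57BL/6 x 129s4/SvJae, whereas the methods name SJL in the cross. No untreated mice of the same age were analysed here, so time after RA and age cannot be told apart.

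Type A spermatogonia divide by mitosis after RA has committed them to differentiate, and type B spermatogonia are the last mitotic generation before preleptotene spermatocytes, which enter meiosis. RA acts through nuclear receptors (RARs, paired with RXRs) that sit on DNA together with corepressors or coactivators. The germ cell gene *Stra8* responds to RA and is needed for entry into meiosis, and *Kit*, a receptor tyrosine kinase, marks differentiating spermatogonia. Open regions at gene starts, often in CpG islands, are shared by many cell types, whereas open regions inside and between genes differ more from one cell type to another.

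The 48 h libraries had 25941 and 33982 peaks and the 120 h libraries 39551 and 24643, so that the groups overlapped (two-sided p = 1 in an exact permutation test of 2 against 2, for which 0.333 is the smallest p). Of 12 germ cell marker genes, 10 or 11 had a peak in each library, among them *Ddx4*, *Dazl* and *Piwil2*. Among marker genes of other testis cells with a peak, there were 12 or 13 of 16 for Sertoli cells, 1 to 5 of 10 for Leydig cells, 7 or 8 of 9 for peritubular myoid cells, 3 to 6 of 10 for macrophages and 5 to 7 of 8 for endothelial cells. Summed heights at 48 h were 2253 and 3190 for the germ cell list, against 5278 and 3587 at 120 h, with 1764 and 2814 against 4482 and 2308 for Sertoli cells, and 198 and 387 against 755 and 252 for Leydig cells. They were 1175 and 1398 against 3140 and 1657 for myoid cells, 846 and 979 against 2316 and 1311 for macrophages, and 340 and 580 against 1316 and 528 for endothelial cells. Thus 120 h replicate 1 had the highest sum in all 6 lists. *Fshr*, *Cyp17a1*, *Hsd3b1*, *Csf1r*, *Adgre1* and *Ptprc* had no peak in any of the 4 libraries. *Cyp11a1*, the side-chain cleavage enzyme of Leydig cells, was assigned peaks of 212 and 102 in both 120 h libraries and none in the other 6. They lie at -9289 bp from its start. Gained regions were also assigned to the smooth muscle gene *Lmod1* (324 and 202, at -877 bp) and the endothelial gene *Vwf* (160 and 57, at -9460 bp). Further gained regions were assigned to *Sox9* (167 and 87) and *Dmrt1* (92 and 74) of the Sertoli cell list and *Cx3cr1* of the macrophage list (125 and 62). The *Sox9* region lies in an intron of *Gm11681* and the *Dmrt1* region 87 bp from the start of *Dmrt3*. Regions assigned to *Myh11* (58 and 93 against 292 and 169, at -2160 bp) and *Flt1* (37 and 40 against 157 and 90, at 91844 bp) rose. So did the start region of *Srprb*, also assigned to *Trf* of the Sertoli cell list (95 and 105 against 268 and 186). A start region assigned to *Eif4a1* and to *Cd68* of the macrophage list rose from 389 and 518 to 1192 and 877. On ranks, the unadjusted p of these 2 was 0.0291 and 0.729 (limma). In the other direction, regions of the endothelial gene *Tek* (34 and 42 at 48 h), of *Gata4* (61 and 56) and of *Ptch1* of the myoid list (69 and 79) were lost. Of 43 Sertoli cell regions 3 were gained and 2 lost, and of 11 Leydig cell regions 1 and 1. Myoid cells had 1 and 1 of 25, macrophages 1 and 0 of 13, and endothelial cells 2 and 1 of 24. Over all 48153 regions, 5.4% were gained and 2.38% lost. Regions assigned to the endothelial gene *Kdr* (40 and 72 against 40 and 38) and to the Sertoli cell gene *Clu* (78 and 124 against 121 and 47) fell on the centred scale, with overlapping deposited heights. The *Clu* region lies at 20157 bp, in an intron of *Gulo*. A peak at a gene is not a measure of its transcript, and the part of other cell types in the results below was not tested.

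The regions that the account turns on are shown first, as the 200 bases centred on the highest summit (mm10, read from the RefSeq GRCm38 sequence). The 4 kinds of match are in capitals, and each was searched on both strands. TACANTGT is the core of the sites bound by DMRT factors, germ cell and gonad regulators that include *Dmrt1*. CCAAT is the box bound by NFY, AGGTCA the half-site of nuclear receptors, and TGTGGTT the site of RUNX factors. The first set holds 2 of the largest rises, a gained region and a region with a large fall, all with a DMRT match:
*C1ql1* intron, higher at 120 h, chr11:102940221-102940420, plus strand: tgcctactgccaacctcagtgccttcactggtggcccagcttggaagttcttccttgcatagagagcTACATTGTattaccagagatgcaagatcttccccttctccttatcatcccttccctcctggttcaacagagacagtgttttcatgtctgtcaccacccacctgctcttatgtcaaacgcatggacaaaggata
*Mxi1* intron, higher at 120 h, chr19:53338941-53339140, plus strand: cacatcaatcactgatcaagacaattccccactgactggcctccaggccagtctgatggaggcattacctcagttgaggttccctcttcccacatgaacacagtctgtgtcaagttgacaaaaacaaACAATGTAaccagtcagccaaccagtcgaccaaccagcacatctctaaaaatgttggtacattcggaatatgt
upstream of *Fem1a*, gained, chr17:56252189-56252388, plus strand: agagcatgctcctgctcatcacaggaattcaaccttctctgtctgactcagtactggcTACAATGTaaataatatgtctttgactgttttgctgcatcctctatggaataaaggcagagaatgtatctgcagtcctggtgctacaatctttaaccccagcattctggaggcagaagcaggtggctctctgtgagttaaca
inside *Dst*, lower at 120 h, chr1:34166589-34166788, plus strand: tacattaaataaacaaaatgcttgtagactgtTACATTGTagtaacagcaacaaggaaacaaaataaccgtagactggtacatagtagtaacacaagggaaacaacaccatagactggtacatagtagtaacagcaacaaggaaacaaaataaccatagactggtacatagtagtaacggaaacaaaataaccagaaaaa

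The second set holds the *Stra8* region that was gained, with a RUNX match, and the *Stra8* region that was lost, with a nuclear receptor half-site. A region that fell and a region that was lost, both with CCAAT, follow:
*Stra8* intron, gained, chr6:34921981-34922180, plus strand: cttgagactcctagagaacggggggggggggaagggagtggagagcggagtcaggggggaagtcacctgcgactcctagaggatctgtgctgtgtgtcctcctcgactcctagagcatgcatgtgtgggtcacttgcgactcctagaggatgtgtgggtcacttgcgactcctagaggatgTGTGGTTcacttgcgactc
upstream of *Stra8*, lost, chr6:34919421-34919620, plus strand: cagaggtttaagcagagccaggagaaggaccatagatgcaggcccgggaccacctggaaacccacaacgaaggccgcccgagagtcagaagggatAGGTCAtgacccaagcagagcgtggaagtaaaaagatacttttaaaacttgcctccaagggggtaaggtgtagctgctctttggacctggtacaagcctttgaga
*Bicc1* intron, lower at 120 h, chr10:71130301-71130500, plus strand: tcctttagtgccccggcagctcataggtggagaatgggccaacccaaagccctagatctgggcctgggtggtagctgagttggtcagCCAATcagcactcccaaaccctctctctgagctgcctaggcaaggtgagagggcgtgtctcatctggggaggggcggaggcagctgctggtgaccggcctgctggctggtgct
*Prr12* intron, lost, chr7:45051005-45051204, plus strand: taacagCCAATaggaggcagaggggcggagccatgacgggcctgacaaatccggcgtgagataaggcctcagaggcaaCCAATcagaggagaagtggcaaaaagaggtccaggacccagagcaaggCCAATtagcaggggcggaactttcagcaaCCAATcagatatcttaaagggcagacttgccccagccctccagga

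Heights were compared in the 17045 regions that each of the 4 libraries had a peak in. With each library centred on its median, 1580 regions (9.27%) rose and 1254 (7.36%) fell at an adjusted p under 0.05 (limma, Benjamini-Hochberg over all 17045 regions). At an unadjusted p under 0.05 the shares were 19.8% higher and 14.7% lower. Of the regions that rose, 72.5% lay at gene starts, and of those that fell 28.5%, against 55.9% of all regions tested. Of the rises with an unadjusted p under 0.05 on ranks, 54.4% lay at gene starts. On heights as deposited, 1830 regions (10.7%) were higher and 12 (0.0704%) lower, or 31.8% and 0.346% at an unadjusted p under 0.05, with a median log2 change over all regions of 0.54 in place of 0.06. On ranks, where all 4 libraries are given 1 common distribution of heights, 1 region (0.00587%) was higher and 0 were lower at the same threshold in limma. That region has no assigned gene and lies at chr18:35934460-35935008, with heights of 68 and 80 at 48 h and 786 and 503 at 120 h. At an unadjusted p under 0.05 on ranks, 1519 regions (8.91%) were higher and 1581 (9.28%) lower. At an adjusted p under 0.1 on ranks the counts were 234 and 195.

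The gap between the scales went with height. The interquartile range of log2 height was 1.14 and 1.12 in the 48 h libraries and 1.54 and 1.75 in the 120 h libraries (two-sided p = 0.333 in an exact permutation test, the smallest that 2 against 2 can give). Among 5 equal classes of regions by mean height, the lowest had median heights of 46 and 54 at 48 h, against 66 and 45 at 120 h. The highest class had 194 and 228 at 48 h, against 478 and 350 at 120 h. The median centred log2 change went from -0.35 in the lowest class to 0.53 in the highest, and on ranks from -0.03 to 0.04. The highest class held 856 of the 1580 regions that rose, and the lowest class 536 of the 1254 that fell.

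**Figure D1:**
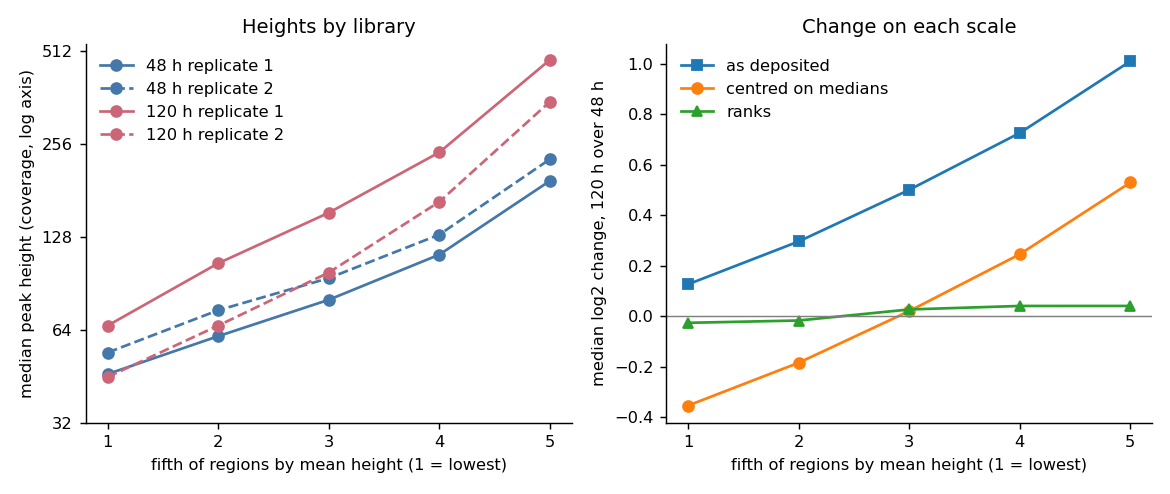
Left, median peak height (coverage, log axis) in 5 equal classes of the 17045 regions by mean height, 1 line per library. Right, the median log2 change from 48 h to 120 h in the same classes on 3 scales, which climbs with height as deposited and centred (-0.35 to 0.53) and stays near 0 on ranks.

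The 1580 regions that rose and the 1254 that fell on the centred scale kept their sign on the other scales. All 1580 also passed the threshold as deposited, and 813 of them (51.5%) had an unadjusted p under 0.05 on ranks. Of the 1254 that fell, 12 passed as deposited, 326 had deposited heights that were lower in both 120 h libraries than in both 48 h libraries, and 948 (75.6%) had an unadjusted p under 0.05 on ranks. Single libraries moved the counts. Without 48 h replicate 1 there were 276 rises and 398 falls, without 48 h replicate 2 there were 94 and 59, without 120 h replicate 1 there were 2593 rises, and without 120 h replicate 2 there were 696. A limma fit with 1 library in a group takes its spread from the other group. Replicates of a timepoint are separate mice.

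Counts were split by place in the genome. Gene start regions with a CpG island had 1084 rises and 203 falls among 8397 tested, and a median log2 change of 0.27 centred, 0.75 as deposited and 0.07 on ranks. The 7297 regions without a CpG island had 410 rises and 982 falls, with medians of -0.18 centred, 0.30 as deposited and -0.06 on ranks. On ranks at an unadjusted p under 0.05, the gene start regions with a CpG island had 671 higher and 355 lower, and the regions without a CpG island 753 higher and 1109 lower. Among the 813 rises that also passed p under 0.05 on ranks, 55.5% lay in a CpG island and 54.4% at a gene start. Among the 948 such falls, 19.3% lay in a CpG island and 26.7% at a gene start. Over all 17045 regions the shares were 57.2% and 55.9%.

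The largest rises lay mostly in introns and outside CpG islands. By a rule on size, 12 regions with an assigned gene are named, of which 9 had their summit in an intron and 2 lay in a CpG island. Of all 17045 regions tested, 57.2% lay in a CpG island, and the share with a summit in an intron was not counted. The rule took only regions past the threshold whose 2 groups did not overlap on the centred scale. The *C1ql1* intron (chr11:102939960-102940620, 6141 bp from the gene start), a gene for a secreted C1q-like protein, had heights of 67 and 78 at 48 h and 608 and 359 at 120 h, a log2 change of 2.21 ± 0.24 (SE) with an adjusted p of 1.11e-07 (limma) and 2.02 on ranks. A region in *Gpt2* (chr8:85526235-85526837), the mitochondrial alanine transaminase, had 50 and 85 against 555 and 286, a log2 change of 2.13 ± 0.25 (SE). At the start of *Rpl41* (chr10:128548939-128549427), which encodes a ribosomal protein, heights went from 87 and 81 to 511 and 399. In all 3, both 120 h libraries stood more than 3 times above both 48 h libraries.

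The other rises follow. The *Mxi1* intron (chr19:53338789-53339299), a gene for a MAX partner that represses MYC targets, had 59 and 49 at 48 h and 407 and 152 at 120 h, a log2 change of 1.73 ± 0.26 (SE) with an adjusted p of 3.46e-05 (limma). The region at -6457 bp from *Numb* (chr12:83848648-83849198), an inhibitor of Notch signalling, had 34 and 32 against 186 and 122, and no peak in any 0 h or 18 h library. The *Camta1* intron, in a gene for a calmodulin-binding transcription activator, had 82 and 137 against 568 and 425. The phosphatase gene *Cdc14a* had an intronic region with 34 and 45 against 199 and 157. A region at -5107 bp from *Ppp1r2*, an inhibitor of protein phosphatase 1, had 47 and 50 against 213 and 219. No 120 h library came within the range of the 48 h libraries in any of these, as the rule required on the centred scale. As deposited, the same held for all 1580 rises. The others were *Wdr45b* with 63 and 68 against 499 and 244, *Ttc34* with 79 and 135 against 600 and 494, the transporter gene *Abcc4* with 47 and 47 against 293 and 173, and *Greb1* with 90 and 91 against 525 and 299.

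The 12 rises had log2 changes of 1.65 to 2.21 centred, 2.13 to 2.69 as deposited and 1.41 to 2.02 on ranks. On ranks their adjusted p lay between 0.055 and 0.0702 (limma), so that none passed the threshold of 0.05. They were chosen for their centred change, so these values describe them. In 10 of the 11 with a peak in both 0 h libraries, both 120 h libraries were above both 0 h libraries. The exception, *Wdr45b*, had 278 and 188 at 0 h.

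The largest falls also lay mostly in introns, with 8 of 12, a share that was not counted over all regions tested. An intron of *Cndp1* (chr18:84642746-84643600), a carnosine dipeptidase, had heights of 149 and 248 at 48 h and 109 and 42 at 120 h, a log2 change of -1.99 ± 0.26 (SE) with an adjusted p of 3.9e-06 (limma). A region in *Dst* (chr1:34166510-34166940), which encodes a cytoskeletal linker, had 85 and 128 against 51 and 39, a log2 change of -1.71 ± 0.25 (SE). At the start of *Gpr98* (chr13:81632818-81633566), an adhesion G protein-coupled receptor, heights were 179 and 286 against 152 and 63. All of these were lower in both 120 h libraries, as the rule required on the centred scale. As deposited they were lower by less in 120 h replicate 1 than in replicate 2.

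The remaining falls are given by their deposited heights. A *Chd9* intron (chromatin remodeller) had 133 and 110 against 84 and 33, a *Lpcat1* intron (phospholipid acyltransferase) 132 and 188 against 121 and 39, and a *Dnajc27* intron 147 and 234 against 130 and 51. The region at the start of *Rsl1*, a zinc finger repressor gene, had 67 and 107 against 45 and 31. A *Bicc1* intron (RNA-binding protein; chr10:71130207-71130865) had 88 and 148 against 72 and 38, a log2 change of -1.61 ± 0.25 (SE) with an adjusted p of 5.11e-05 (limma). A region at -940 bp from *Sgol2*, which protects centromeric cohesin in meiosis, had 127 and 117 against 83 and 38. As deposited, 120 h replicate 2 was the lowest of the 4 libraries in each of the 12 falls, whereas on the centred scale 120 h replicate 1 was the lowest for LOC101056186, *Dst*, *Rsl1* and *Lphn2*. The others were *Lphn2* with 86 and 151 against 58 and 46, *Etv3l* with 108 and 206 against 92 and 50, and LOC101056186 with 83 and 81 against 39 and 31. The last lies among near-identical copies, and its reads could be split between them.

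Heights at 120 h were set beside those at 0 h. Of all 17045 regions tested, 16797 had a peak in both 0 h libraries, and in 11405 of those both 120 h libraries were below both 0 h libraries and in 404 above. All 12 named falls had both 120 h libraries below both 0 h libraries. Of the 1254 regions that fell, 1247 had a peak in both 0 h libraries, and in 1206 of those both 120 h libraries were below both 0 h libraries. Of the 1580 rises, 1555 had a peak in both 0 h libraries, of which 209 were above and 240 below both. Heights as deposited were used for these counts, with no test, and the rises and falls had been chosen by their 120 h heights. The 12 falls had log2 changes of -1.60 to -1.99 centred, and their adjusted p on ranks lay between 0.0555 and 0.0705 (limma), so that none passed there either. As deposited, 9 of the 12 passed, and *Etv3l*, *Bicc1* and *Sgol2* did not, with adjusted p of 0.0506, 0.0521 and 0.0531 (limma).

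**Figure D2:**
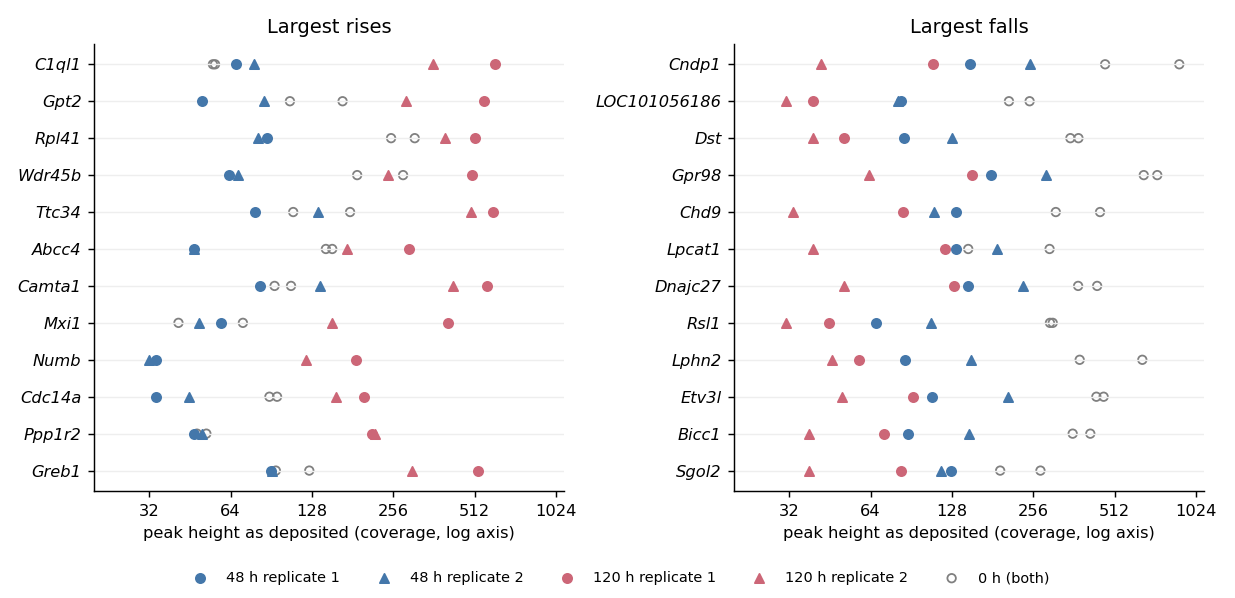
Peak height as deposited (log axis) in each library for the 12 largest rises and the 12 largest falls, with open circles for the 0 h libraries. Both 120 h libraries lie to the right of both 48 h libraries in each rise and to the left in each fall, with 120 h replicate 2 the lowest library in each fall. The choice of the regions required groups apart on the centred scale.

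Gained and lost regions have no height at 1 of the 2 timepoints, where the signal was below the calling limit, and they were counted without a test. A peak in both 120 h libraries and neither 48 h library was found in 2599 regions (5.4% of 48153), and a peak in both 48 h libraries and neither 120 h library in 1145 (2.38%). Most were low. The lower of the 2 heights had a median of 50 in gained regions and 39 in lost regions, and it was at least 50 in 1346 gained and 205 lost regions. Counts depended on single libraries. Gained regions numbered 4604 without 48 h replicate 2, 4031 without 120 h replicate 1 and 11394 without 120 h replicate 2, and lost regions 6165 without 48 h replicate 1, 2357 without 48 h replicate 2 and 5181 without 120 h replicate 1.

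Gained regions had a peak at 0 h less often than regions overall. Among all 48153 regions, 79.8% had a peak in both 0 h libraries, 48.8% in both 18 h libraries and 12.2% in none of these 4. Of the 2599 gained regions, 1313 (50.5%) had a peak in both 0 h libraries, 185 (7.12%) in both 18 h libraries, and 831 in no 0 h or 18 h library. Of the 1145 lost regions, 1065 (93.0%) had a peak in both 0 h libraries, 571 (49.9%) in both 18 h libraries, close to the share over all regions, and 22 (1.92%) in none. In 747 of the 1313 gained regions called at 0 h, both 120 h heights were below both 0 h heights, and in 90 they were above. Gained regions lay at a gene start in 16.8% of cases and inside a gene in 42.4%, and lost regions in 15.4% and 35.4%. Over all regions the shares were 29.7% and 33.5%. An assigned gene was present for 76.5% of gained and 65.3% of lost regions, and for 76.6% of all regions.

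**Figure D3:**
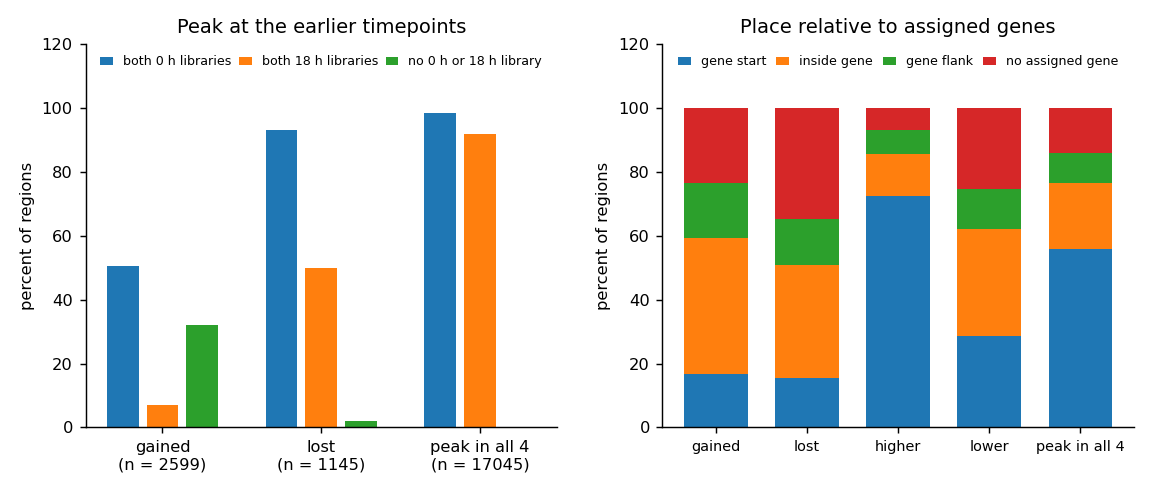
Left, percent of gained, lost and common regions that also had a peak in both 0 h libraries, in both 18 h libraries, or in none of those 4. Right, place relative to the assigned genes for 5 sets of regions. Lost regions were nearly all open at 0 h (93.0%), gained regions in 50.5% of cases.

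The strongest gained regions stood far above the calling limit. An intron of *Rcan3* (chr4:135430171-135430710), a calcineurin regulator, had heights of 740 and 570 at 120 h and otherwise 1 peak, of 84 in 0 h replicate 2. An intron of *Abcf1* (chr17:35967434-35967876) had 387 and 307, and no peak at 0 h or 18 h. An intron of *Cbfa2t3*, a transcriptional corepressor of the ETO family, had 591 and 306 at 120 h, with 39 and 67 at 0 h. The region at -4473 bp from *Fem1a* had 575 and 292, with a peak of 136 in 0 h replicate 2. The *Txnl4a* intron had 383 and 245, with 1 earlier peak, of 79 in 0 h replicate 1. A *C330006A16Rik* intron had 355 and 242, with 110 and 123 at 0 h. The region at -592 bp from the homeobox gene *Six5* had 275 and 241, close to its 195 and 254 at 0 h, and 112 in 18 h replicate 2. A pair of regions near the cytokine receptor gene *Crlf2* had 608 and 609, and 290 and 300. The first had earlier peaks of 859 in 0 h replicate 2 and of 270 and 271 at 18 h, and the second of 371 and 612 at 0 h and 229 in 18 h replicate 2.

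The strongest lost regions were lower than these. An intron of *Dbp* (chr7:45709114-45709435), a circadian transcription factor, had 167 and 222 at 48 h and 359 and 714 at 0 h. An intron of *Wbp11*, near the histone gene *H2afj*, had 157 and 176, and the *Prr12* intron (chr7:45050996-45051270) 109 and 139. An intron of *Slc39a14*, a zinc and iron transporter, had 104 and 213 at 48 h and no peak at any other timepoint. The region at the start of *Hist1h2ae* had 106 and 119, and it lies in a cluster of near-identical histone genes, where reads could be split. Of the other lost regions, that of *Ankhd1* had 101 and 118, *Ptma* 96 and 102, *Pabpc1* (poly(A)-binding protein) 89 and 104, and *Tnrc6c* (microRNA-guided silencing) 84 and 134. A region in a coding exon of *Kiss1r* had 94 and 90. In 5 of the 7 named lost regions with a peak in both 0 h libraries, both 48 h heights were already below both 0 h heights. In the *Wbp11* intron both were above, against 93 and 125 at 0 h. Lower heights at 48 h were not particular to the named regions. Over all lost regions, median heights were 97 and 106 at 0 h and 40 and 46 at 48 h. Among the 17045 tested, the medians were 212 and 255 at 0 h and 81 and 97 at 48 h.

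Counted over genes, 19392 genes had a peak in at least 1 of the 4 libraries and 15516 in all 4. A peak in both 120 h and neither 48 h library was found for 290 genes (1.5%), of which 259 had a peak in both 0 h libraries and 20 had none at 0 h or 18 h. The reverse held for 144 genes (0.743%), of which 143 had a peak in both 0 h libraries. Among the highest values of gained genes were those of *Cbfa2t3* with 591 and 306, *Fyb*, an adaptor protein of T cells, with 326 and 179, and *Ace*, angiotensin-converting enzyme, with 278 and 172. *Itgb2*, a leukocyte integrin subunit, had 145 and 112, *Prdm14*, a germ cell specification factor, 116 and 91, and *Th*, tyrosine hydroxylase, 160 and 90. Among the lost genes, *Ccdc170* had 73 and 80 at 48 h, *Mfap2*, a microfibril protein, 70 and 66, and the photopigment gene *Opn4* 65 and 95. Without 48 h replicate 2 there were 853 gained genes and without 120 h replicate 2 there were 872. Lost genes numbered 584 without 48 h replicate 1, 229 without 48 h replicate 2 and 960 without 120 h replicate 1.

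Few genes held several such regions. The 2599 gained regions were assigned to 2492 genes, 26 of them with 3 or more regions, and the 1145 lost regions to 938 genes, 3 of them with 3 or more. *Mta3*, a subunit of the NuRD chromatin complex, had 4 gained regions, with heights between 39 and 176, of which 3 had no peak at 0 h or 18 h. *Ryr1*, a calcium release channel, had 4 lost regions, with heights from 46 to 85 at 48 h and from 97 to 243 at 0 h. *Ppm1h*, a protein phosphatase, and *Robo1*, a guidance receptor, had 3 lost regions each.

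*Stra8* had both a gained and a lost region. The lost region (chr6:34919387-34919702), at -1440 bp from the gene start, had 98 and 75 at 48 h, 64 and 65 at 0 h, and no peak at 18 h or 120 h. The gained region (chr6:34921766-34922348), in an intron at 1120 bp, had 141 and 220 at 120 h and no peak in the other 6 libraries. Between them, the region at the start itself had 165 and 168 at 48 h and 202 and 182 at 120 h, a log2 change of -0.28 ± 0.25 (SE) with an adjusted p of 0.442 (limma), and -0.57 on ranks. At *Kit*, the region at the gene start had 127 and 142 against 250 and 159, a log2 change of 0.09 ± 0.24 (SE) with an adjusted p of 0.816 (limma). A region 629 bp into *Kit* had 49 and 50 against 66 and 59.

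Genes of undifferentiated spermatogonia had 133 regions, of which 9 were gained and 4 lost, and 6 rose and 1 fell of 41 tested. A region at -7868 bp from *Tango6*, also assigned to *Cdh1* (E-cadherin), had 58 and 47 at 48 h and 291 and 153 at 120 h, a log2 change of 1.53 ± 0.25 (SE) with an adjusted p of 0.000103 (limma). A region at 16179 bp from *Eomes*, a T-box factor, went from 45 and 48 to 259 and 98. The region assigned to *Itga6* and *Pdk1* fell, with 151 and 176 against 156 and 40, though 120 h replicate 1 lay within the deposited heights at 48 h. A region at -92 bp from *Cchcr1*, also assigned to *Tcf19* and *Pou5f1*, rose from 172 and 166 to 552 and 333. At -96 bp from *Dhdds*, a region also assigned to *Lin28a* rose from 226 and 262 to 666 and 544. On ranks, the unadjusted p was 0.0771 for the first and 0.179 for the second (limma). An intron of *Lin28a* held another rise, with 143 and 142 against 472 and 224. Near the start of *Lin28a* itself, a region at 1248 bp was lost (56 and 68 at 48 h) and one at -800 bp gained (65 and 49). Its region at 160 bp had a peak in 48 h replicate 2 (52) and 120 h replicate 1 (56), without one in the other replicate of either timepoint. The regions of *Nanos2*, *Neurog3*, *Sox3*, *Zbtb16*, *Onecut2*, *Enc1*, *Ptch1* and *Sdc4* with a peak in all 4 libraries had log2 changes between -0.68 and 0.48, and none passed the threshold. On ranks, the region at -141 bp from *Mypop*, also assigned to *Nanos2*, had the lowest unadjusted p of these, 0.0272 (limma), with a change of -0.54. *Neurog3*, a factor of progenitor spermatogonia, had a gained region with 98 and 91 and no earlier peak, and *Ptch1*, the Hedgehog receptor, a lost region with 69 and 79.

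Genes of differentiating spermatogonia had 61 regions, of which 5 were gained and 4 lost, and 1 rose and 2 fell of 26 tested. *Usp26*, a deubiquitinase gene on the X chromosome, rose at its start from 98 and 85 to 292 and 267, a log2 change of 1.13 ± 0.26 (SE) with an adjusted p of 0.00353 (limma). Regions assigned to *Uchl1* (98 and 131 against 113 and 61) and *Dnmt3a* (93 and 105 against 97 and 60) fell on the centred scale, while their deposited heights overlapped between the timepoints.

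Retinoid genes had 81 regions, of which 8 were gained and 1 lost, and 2 rose and 1 fell of 32 tested. The region at the start of *Rarb*, an RA receptor gene, fell, with 70 and 59 at 48 h and 56 and 41 at 120 h, a log2 change of -0.90 ± 0.25 (SE) and an adjusted p of 0.0144 (limma). The start of the partner receptor gene *Rxrb*, shared with *Slc39a7*, rose from 151 and 158 to 423 and 309, and the start of the corepressor gene *Ncor1* from 120 and 97 to 281 and 225. On ranks, the unadjusted p was 0.0329 for *Rarb*, 0.0995 for *Rxrb* and 0.0793 for *Ncor1*.

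Meiotic prophase genes had 146 regions, of which 6 were gained and 1 lost, and 7 rose and 3 fell of 84 tested. A start region assigned to *Coa3* and to *Cntd1*, a crossover regulator, rose from 121 and 97 to 371 and 269. A start region assigned to *Gpc2* and to *Stag3*, a meiotic cohesin subunit, rose from 346 and 452 to 1125 and 882. A region in *Hsf5*, needed in spermatocytes, fell, with 52 and 52 against 37 and 35. On ranks the *Stag3* change was 0.23 with an unadjusted p of 0.267. Genes of the PIWI and piRNA pathway, which silences transposons, had 2 rises and 1 fall of 38 tested. A region at -3969 bp from *Tdrd1*, which encodes a Tudor protein of that pathway, rose from 165 and 180 to 503 and 331. The start of *Gtsf1* fell on the centred scale, with overlapping deposited heights of 62 and 92 against 92 and 44. A gained region assigned to *Exd1* had 194 and 122 and no earlier peak.

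Genes of haploid spermatids had 4 rises and 1 fall of 26 tested. The start of *Crem*, the CREB-family activator of spermatid genes, went from 107 and 111 to 531 and 413, a log2 change of 1.62 ± 0.25 (SE) with an adjusted p of 3.46e-05 (limma) and 1.30 on ranks. Of the 33 genes of this list with a peak, 3 gained it, against 1.5% of all genes. These were *Prm1* (168 and 108), *Odf3* (88 and 69) and *Ldhc* (94 and 47), and all had peaks in both 0 h libraries. The *Prm1* peak is also assigned to *Socs1*, *Tnp2*, *Prm3* and *Prm2*, whose starts all lie nearer to it. *Hils1*, a spermatid linker histone, lost its peak, with 49 and 53 at 48 h.

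Cell cycle genes had 8 rises and 2 falls of 71 tested, with *Cdkn2a* (93 and 109 against 321 and 244), *E2f1* (160 and 197 against 580 and 418) and *Mcm7* (148 and 187 against 558 and 343) rising at their starts and a region near *Cdkn2c* falling (66 and 67 against 59 and 35). Genes of histone modifying enzymes had 12 rises and 3 falls of 97. The starts of the H3K9 methyltransferase gene *Ehmt1* (90 and 120 against 337 and 240) and of the demethylase gene *Kdm6a* (125 and 171 against 421 and 374) rose, and introns of *Kdm2a* (132 and 166 against 119 and 68) and *Hdac5* (118 and 151 against 128 and 64) fell, the latter with overlapping deposited heights. *Hdac9* lost its peak, which had 50 and 58 at 48 h. DNA methylation genes had 1 rise and 2 falls of 26, and a lost region in *Tet1*, a 5-methylcytosine dioxygenase, had 43 and 48 at 48 h.

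Genes of TGF beta, BMP and activin signalling had 1 rise and 4 falls of 49 tested. The BMP target gene *Id1* fell at its start (128 and 117 against 140 and 60) and the BMP antagonist gene *Grem1* in a region 152 bp from its start (43 and 66 against 40 and 27), while the SMAD corepressor gene *Skil* rose (108 and 135 against 339 and 342). The deposited heights of *Id1* overlapped. Wnt genes had 5 rises and 3 falls of 56, among them the effector gene *Tcf7l2*, which rose at its start from 54 and 75 to 200 and 138, and *Wnt5a*, which fell on the centred scale at 29471 bp from its start, with overlapping deposited heights of 96 and 120 against 125 and 47. Hox clusters had 8 gained regions of 75 and 1 rise among 13 tested, and *Hoxa11* gained its peak, with 65 and 46. Against shares over all regions of 9.27% higher and 7.36% lower, and of 5.4% gained and 2.38% lost, these lists hold few called regions each, and their members were chosen with earlier results known. Over all genes, 1.5% gained and 0.743% lost their peak.

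The X chromosome moved up in rank. Of 374 X regions tested, 83 (22.2%) were higher and 15 (4.01%) lower at an unadjusted p under 0.05 on ranks, against 1435 (8.61%) and 1562 (9.37%) of 16662 autosomal regions (limma on ranks). The change on ranks was above 0 in 275 X regions (73.5%) and 8532 autosomal regions (51.2%), with medians of 0.21 and 0.01. On the centred scale, 38 X regions (10.2%) rose and 19 (5.08%) fell at an adjusted p under 0.05. Among 341 X regions called in each of the 8 libraries, the median X region stood at percentile 28.7 and 29.2 of the heights of X and autosomal regions at 48 h, and at 37.4 and 44.5 at 120 h. The 0 h libraries gave 36.5 and 42.7 and the 18 h libraries 35.6 and 36.8, so that both 48 h libraries were the lowest of the 8. For 2 libraries against 2 the smallest exact p is 0.333, and no test of X against autosomes was made.

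The shift of the X differed between scales at gene starts. In 190 gene start regions with a CpG island, the median X region stood at percentile 19.1 and 21.1 at 48 h and 26.6 and 28.9 at 120 h, while its log2 height was below that of autosomal regions by a similar amount, with differences of -0.74 and -0.68 at 48 h and -0.78 and -0.70 at 120 h. In 56 X regions that were neither a gene start nor in a CpG island, the differences were -0.24 and -0.30 at 48 h and -0.08 and 0.14 at 120 h. Regions with a large change in rank included those at the starts of *Idh3g* (46 and 39 against 174 and 149), *Zfx* (52 and 38 against 128 and 135) and *Ogt* (31 and 46 against 90 and 80), and a region at -1074 bp from *Maoa* (39 and 44 against 170 and 133). These encode a mitochondrial dehydrogenase subunit, a zinc finger factor, the O-GlcNAc transferase and monoamine oxidase A. They were chosen after their values were seen, except *Zfx*. Among listed X-linked germ cell genes, 3 regions rose and 0 fell of 13 tested, at *Usp26*, *Gm364* and *Zfx*, and at an unadjusted p under 0.05 on ranks 6 were higher and 0 lower. Of 9 Y regions tested, 0 rose and 4 (44.4%) fell, against 7.36% of all regions tested. The falls include the region assigned to *Mid1* (126 and 154 against 109 and 118), and 9 regions are too few to describe the Y.

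**Figure D4:**
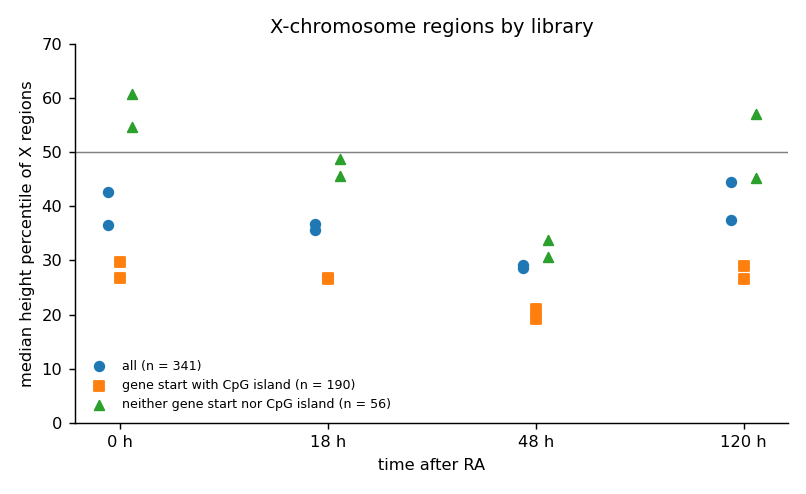
Median percentile of X regions among the heights of all X and autosomal regions of the same kind, 1 point per library, for regions called in each of the 8 libraries. The horizontal line marks 50. Over all X regions, the percentiles are 28.7 and 29.2 for 48 h, against 37.4 and 44.5 for 120 h.

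Sequence matches were counted in regions that were neither at a gene start nor in a CpG island. TACANTGT was present in 21.0% of 1999 gained, 9.88% of 911 lost and 17.3% of all 30660 such regions, against 1.97% of RefSeq promoter windows of the same length. Regions with a peak in all 4 libraries had it in 22.7%, above the gained share. It was present in 26.4% of 349 that rose and 18.4% of 828 that fell. Base composition moved with these shares, since the median GC content was 48.5% in gained and 52.5% in lost regions. Under 45% GC, TACANTGT was present in 31.1% of gained, 30.4% of lost and 36.8% of common regions, and within 45 to 50% GC in 24.2%, 13.5% and 32.0%. Within 50 to 55% GC the shares were 14.6%, 6.30% and 19.5%, and over 55% GC they were 4.28%, 1.61% and 4.02%. CCAAT was present in 19.3% of gained, 30.7% of lost, 27.2% of common and 24.0% of all such regions, and in 28.4% of promoter windows, with a lower share in gained than in lost regions in each of the 4 GC classes. AGGTCA was present in 10.2% of gained, 14.3% of lost and 11.8% of all such regions, and in 11.4% of promoter windows. TGTGGTT was present in 5.15% of gained, 5.16% of lost and 4.67% of all such regions, and in 3.50% of promoter windows. These matches were chosen from a longer list of motifs with the shares known. The RAR direct repeat of AGGTCA with 5 bases between was found in 0 gained regions, in 0.22% of lost regions and in 0.023% of all these regions. With 911 lost regions, that share rests on very few matches, and no difference is read from it. Repeat sequence made up over 50% of the window in 166 of the 1999 gained, 100 of the 911 lost and 2748 of all 30660 regions.

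The sets of regions were followed over the 4 timepoints. The rises and falls were chosen by their heights at 48 h and 120 h, and 856 of the 1580 rises were in the highest class of height, so these medians are a description. Over all 17045 regions the medians were 212 and 255 before RA, then 90 and 111 (18 h), 81 and 97 (48 h), and 156 and 98 (120 h). In regions that rose, the 0 h libraries had median heights of 316 and 411.5, the 18 h libraries 133 and 185, the 48 h libraries 128 and 144.5, and the 120 h libraries 407 and 303. In regions that fell, the medians were 196.5 and 236 before RA, then 82 and 99 (18 h), 69 and 91 (48 h), and 78 and 44 (120 h). At 120 h the gained regions had medians of 74 and 51, and at 48 h the lost regions 40 and 46.

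**Figure D5:**
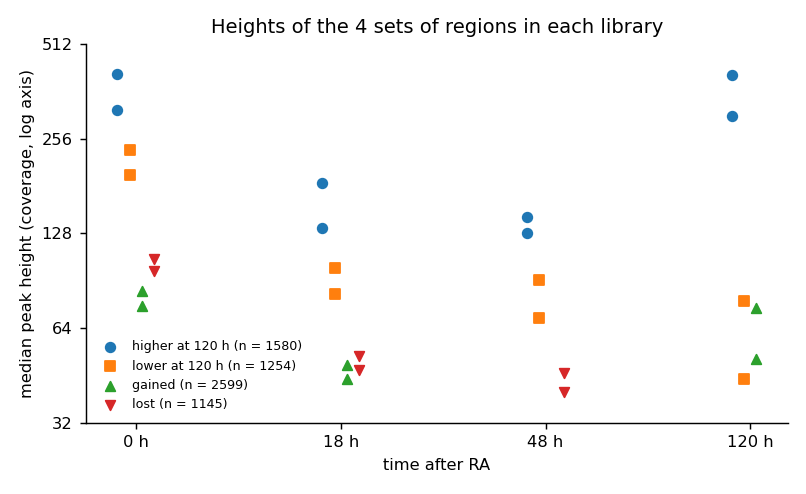
Median peak height (log axis) of 4 sets of regions in each of the 8 libraries, 1 point per library, over the regions with a peak in that library. Regions that rose (circles) lie at 407 and 303 at 120 h and regions that fell (squares) at 78 and 44, a separation that the choice of the sets fixes.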

How the data were processed

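The authors aligned ATAC-seq reads to mm10 with BWA 0.7.12, removed duplicates and mitochondrial tags, reduced each library to the same number of tags, and called peaks per library with MACS2 2.1.0 without a control. The deposited signal is the coverage at the summit of each peak (its height), with the mean over the peak beside it. Read counts per region were not analysed here, so depth behind a height is unknown and no counting interval is given.

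Regions and library calls were made in Python 3.11.15 (pandas 2.3.3) and log2 heights were fitted in R 4.3.3 by limma 3.58.1. Centring subtracted each library's median, a further shift of heights that came from equal numbers of tags, and ranks were quantile normalized. Without centring, 12 of the 1254 falls passed the threshold. In simulated heights of 17045 regions with 200 changed, 65% were called at a log2 change of 1 and 100% at 2. All 4 simulated libraries were given the same spread. The interquartile ranges of the real libraries differ between the timepoints, so these shares do not carry over to them. Genes are those of the deposited table, features are from GENCODE vM21, and a gene start is within 1000 bp. Named regions are the 12 largest rises and falls past the threshold with groups apart, the 10 highest gained and lost regions (1 gained region is not reported here), the genes with most such regions, up to 4 genes per list, and 13 marker genes. Members and lists were chosen with earlier results of these data known.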

Additional observations from a re-analysis of the deposited data

How the results depend on the processing

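Heights have no read counts behind them here, and an absent peak has no height, so gained and lost regions were not tested. With 2 libraries a timepoint, single libraries moved most counts. On the centred scale, leaving out 1 library gave 94 to 2593 regions higher and 59 to 1618 lower. Without centring it gave 0 to 4 higher and 0 lower, and 0 to 3 of the 24 named regions passed. Leaving out 1 library gave 3286 to 11394 gained and 1303 to 6165 lost regions, and 344 to 872 gained and 174 to 960 lost genes.

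Regions higher and lower numbered 1 and 0 on ranks, 7 and 0 with cyclic loess, and 474 and 542 with heights of at least 50. An intensity trend gave 2774 higher, the mean signal of the peak gave 675 lower, and no centring gave 12 lower. Of the 24 named regions, 0 passed on ranks, 4 with cyclic loess and 10 with heights of at least 50, where the others were not tested. The replicate numbers were not shown to pair the libraries (correlation -0.215): a replicate block gave 786 higher and 756 lower, and without centring 33 and 0, with 12 named regions. The crossed replicate block, chosen after seeing the data like the fits without centring that leave out a library or have a block, gave 2700 and 2029.

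A peak in either replicate gave 12608 gained and 7272 lost regions, and 926 gained and 669 lost genes. Peaks of at least 50 gave 453 lost regions, 438 gained genes and 72 lost genes. The same number of highest peaks in each library gave 1729 lost regions and 274 lost genes. No named region reversed its direction. The cause of these shifts was not tested.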
